A study of Mus musculus with 45 samples.

Results

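The comparison made here is between slow/slow and WT/slow mouse embryonic stem cells (ESCs) 15 min after release from a transcription block, and asks what a 2nd copy of the slow Polr2a allele did to the position of the transcription wave-front. Both genotypes are E14 ESCs with a knock-in of R749H in Polr2a, the gene for the largest subunit of RNA polymerase II (RNAPII). WT/slow cells carry it on 1 allele and slow/slow cells on both, so that the comparison groups share 1 mutant allele, and the lines were made by rounds of gene targeting. How many clones stand for each genotype is not given in the sources used here, so clone and genotype cannot be told apart. All cells were kept in 2i medium, were treated with the elongation inhibitor DRB for 4 h by the labels, were washed and were harvested after 15 min, with 3 samples per genotype described as biological replicates. The values are wave-front boundaries from 4sU-DRB-seq, that is, how far downstream of its start each transcript was covered by the wave of new, 4sU-labelled RNA, as called by the authors. The members are all transcripts whose span from start to end is at least 20 kb and that have a boundary in all 6 samples, 25811 of the 35031 transcripts of that length and of the 122968 transcripts listed, from 8743 gene symbols.

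DRB blocks the kinase P-TEFb, so that RNAPII which has started a transcript stays near the promoter. When the drug is washed out the polymerases are released together, and the far edge of the labelled RNA moves down each gene at the pace of the leading polymerases. The altered residue lies in the catalytic subunit, and a mutant of the equivalent residue is known from fruit flies as a slow polymerase. In mouse (GRCm38.p6) the codon lies in exon 14 of the 29 exons of Polr2a on the minus strand, at chr11:69743356-69743358. It is shown within chr11:69743326-69743388 to mark the change that separates the groups, with the reference codon for arginine in capitals.

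Polr2a, codon changed in slow: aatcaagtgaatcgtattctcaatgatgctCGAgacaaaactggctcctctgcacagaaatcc

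Each sample had a boundary in 29242 to 30132 of the transcripts of at least 20 kb, the largest boundaries lay between 57.4 and 59.2 kb, and no pair of samples held identical values. A single value, 2.5 kb, was by far the commonest, and members with it in any sample were counted apart: 2910 members had it in all 6 samples, and 6699 members from 2887 genes had it in none. Unless stated otherwise the fronts below are those of the 6699, of which 4911 were annotated as protein coding. They came from 5961 start sites, so that many share a promoter and are not independent. Replicates agreed less in WT/slow than in slow/slow cells: across these transcripts Spearman's rho between replicates lay from 0.36 to 0.462 in WT/slow and from 0.517 to 0.638 in slow/slow cells, and the SD of a transcript over its 3 replicates had a median of 8.23 kb in WT/slow and 4.58 kb in slow/slow cells. The part of this unequal spread in the results below was not tested. No read counts were among the values, so whether a gene was transcribed enough to place a front could not be checked and no counting error can be given. Among marker genes, Esrrb, Tfcp2l1 and Zfp42 of 7 ESC markers had a boundary in all 6 samples, as did Pax6 of 3 neural markers, Gata4 and Gata6 of 3 endoderm markers and 0 of 3 fibroblast markers. Boundaries were thus present at markers of other cell types too.

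The 2nd slow allele went with a loss of the fronts that had travelled farthest. In WT/slow cells 14.3%, 19.5% and 23.0% of the transcripts had a front past 40 kb in replicates 1, 2 and 3. In slow/slow cells the shares were 3.99%, 3.52% and 4.08%. The groups did not overlap, and the means were 18.9% ± 4.35 and 3.86% ± 0.296 (SD, n = 3), a difference of -15.1 percentage points (exact permutation test over samples, two-sided p = 0.1, the smallest p that 3 against 3 allows). With the replicate numbers as pairs the differences were all below 0 (exact sign-flip test, two-sided p = 0.25, the smallest that 3 pairs allow). This measure, the 90th percentile and the interquartile range were chosen after the distribution had been seen.

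The same loss was seen at the 90th percentile of the fronts, which was 43.8, 46.6 and 47.2 kb in the WT/slow samples. It was 36.2, 36.2 and 33.3 kb in the slow/slow samples, below every WT/slow sample. The means were 45.9 ± 1.82 kb and 35.2 ± 1.67 kb (SD, n = 3), a difference of -10.6 kb (exact permutation test, two-sided p = 0.1). At the near end the order was the opposite. The 10th percentile was 4.0, 5.0 and 5.6 kb in WT/slow and 5.8, 7.3 and 6.7 kb in slow/slow samples, again without overlap. This near-end order depended on the transcripts used. In those of at least 60 kb the groups overlapped, at 4.4, 5.7 and 7.8 kb against 7.6, 8.8 and 8.1 kb. With boundaries at 2.5 kb kept, the 10th percentile over all members was 2.5 kb in every sample. Over the 6699 transcripts the interquartile range was 18.1, 16.7 and 14.9 kb in slow/slow against 24.4, 24.9 and 24.9 kb in WT/slow cells (exact permutation test, two-sided p = 0.1). With boundaries at 2.5 kb kept in, the share past 40 kb was still lower in every slow/slow sample, at 7.44% ± 2.4 and 2.03% ± 0.119 (SD, n = 3), the 90th percentiles overlapped, and the interquartile range was 6.03 kb wider in slow/slow cells.

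**Figure D1:**
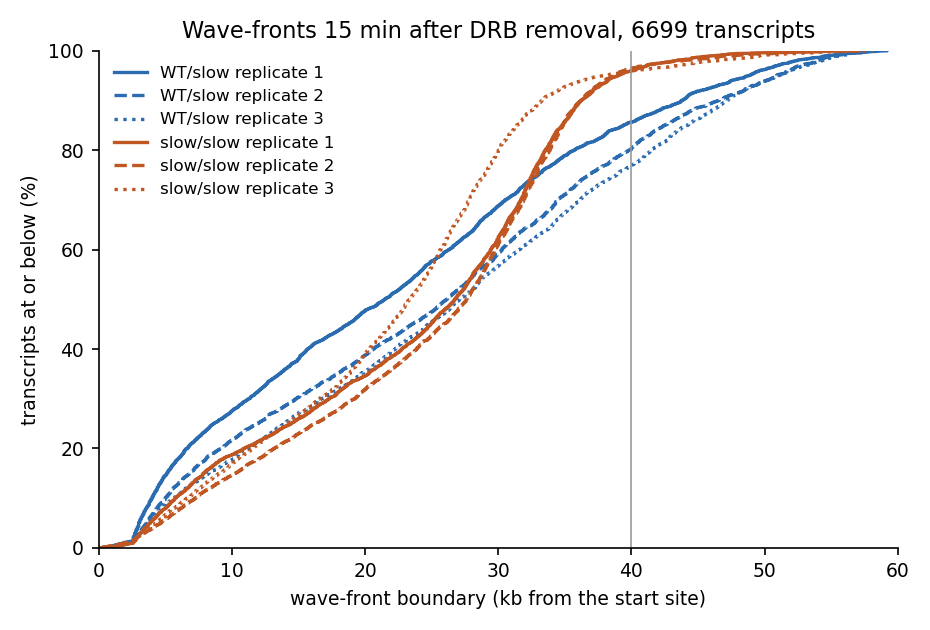
Cumulative share of 6699 transcripts (y axis, %) by wave-front boundary (x axis, kb from the start site) in each of the 3 WT/slow and 3 slow/slow samples at 15 min, members with a boundary at 2.5 kb left out. At the grey line at 40 kb the slow/slow curves have all reached about 96% while the WT/slow curves still have 14.3% to 23.0% of transcripts ahead, and around the medians the curves of both groups cross.

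The middle of the distribution did not show this separation. The median front was 21.5, 26.1 and 27.1 kb in the WT/slow samples. It was 26.8, 27.6 and 23.4 kb in the slow/slow samples, so the groups overlapped. The difference of their means was 1.03 kb towards longer fronts in slow/slow cells (exact permutation test, two-sided p = 0.6). The sign rested on the summary: the mean over transcripts differed by -1.43 kb (p = 0.4 by the same exact test), and the median of the differences of single transcripts was -1.27 kb, with 3802 of 6699 transcripts lower in slow/slow cells. With WT/slow replicate 1 left out, the difference of the medians was -0.17 kb.

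Transcripts in which every replicate had gone far were almost all found in WT/slow cells. All 3 WT/slow fronts lay past 40 kb in 253 transcripts (3.78% of 6699) from 120 genes, and all 3 slow/slow fronts in 23 (0.343%) from 7 genes. Both sets held 4 transcripts in common. Of the 253, 182 from 94 genes had no slow/slow front past 40 kb, while the reverse was true of 4 transcripts from 2 genes. Over all 6699, any front past 40 kb was found in 2559 (38.2%) in WT/slow and in 632 (9.43%) in slow/slow cells. Having no slow/slow front past 40 kb was thus common and not particular to the 253. When each transcript was given by the middle one of its 3 replicates, the 90th percentile was 43 kb in WT/slow and 34.4 kb in slow/slow cells, and the median was 26 kb in both.

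The loss of far fronts was present at each transcript length that could hold them. In transcripts of 30 to 60 kb, 4.87%, 7.19% and 11.1% of WT/slow fronts lay past 40 kb. In the same transcripts 1.77%, 1.27% and 1.16% of slow/slow fronts did. Transcripts of 60 to 100 kb gave 17.1%, 27.3% and 31.1% against 4.98%, 5.38% and 4.38%. Those of 200 kb or more, whose ends no front reached, gave 21.5%, 21.3% and 26.8% against 4.60%, 2.40% and 6.99%. The groups were apart in the 4 classes from 30 kb upwards (exact permutation test, two-sided p = 0.1 in each and 0.125 after adjustment over 5 classes). The 90th percentile was lower in slow/slow cells from 30 kb upwards, with overlap from 30 to 60 kb, and from 20 to 30 kb it was 1.23 kb higher, with overlap. With boundaries at 2.5 kb kept it was higher by 2.03 kb from 20 to 30 kb and by 3 kb from 30 to 60 kb, both with overlap.

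The median front by length class showed groups apart only from 30 to 60 kb, where it was 16.7, 21.4 and 21.1 kb in WT/slow and 23.1, 26 and 22 kb in slow/slow samples, farther in slow/slow cells by 3.92 kb (exact permutation test, two-sided p = 0.1 and 0.5 after adjustment over 5 classes). In the classes of 60 to 100, 100 to 200 and 200 kb or more the difference was -0.83, -1.57 and -2.3 kb, with overlapping groups. In transcripts of at least 60 kb pooled the medians were 24.9, 30.1 and 30.9 kb in WT/slow and 28.7, 28.9 and 24.8 kb in slow/slow samples.

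Fronts within 10 kb of the start made up 22.5%, 17.5% and 12.6% of the WT/slow fronts and 13.8%, 11.3% and 12.8% of the slow/slow fronts in transcripts of at least 60 kb. In the 2419 of these transcripts with every front farther than that, a setting chosen after seeing the data, the medians were 31.9, 34.8 and 35.1 kb in WT/slow and 30.9, 30.1 and 26.2 kb in slow/slow samples. This choice uses the fronts themselves and leaves out more near fronts of WT/slow than of slow/slow cells, which by itself moves the difference down, so the values are given with no test.

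Boundaries at exactly 2.5 kb, counted apart, were fewer in slow/slow cells. They made up 45.3%, 40.9% and 41.1% of the members in the WT/slow samples. They made up 37.6%, 36% and 32.8% in the slow/slow samples, below every WT/slow sample, a difference of -6.96 percentage points (exact permutation test, two-sided p = 0.1). Transcripts of 30 to 60 kb carried most of it, with 48.0%, 43.0% and 43.2% in WT/slow and 38.0%, 31.8% and 27.1% in slow/slow samples. In transcripts of 20 to 30 kb and of 200 kb or more the groups overlapped. With these boundaries kept, the median over all members was 3.2, 4.4 and 4.7 kb in WT/slow and 6.1, 8.5 and 9.5 kb in slow/slow samples, so the direction of the median depends on how this value is treated.

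**Figure D2:**
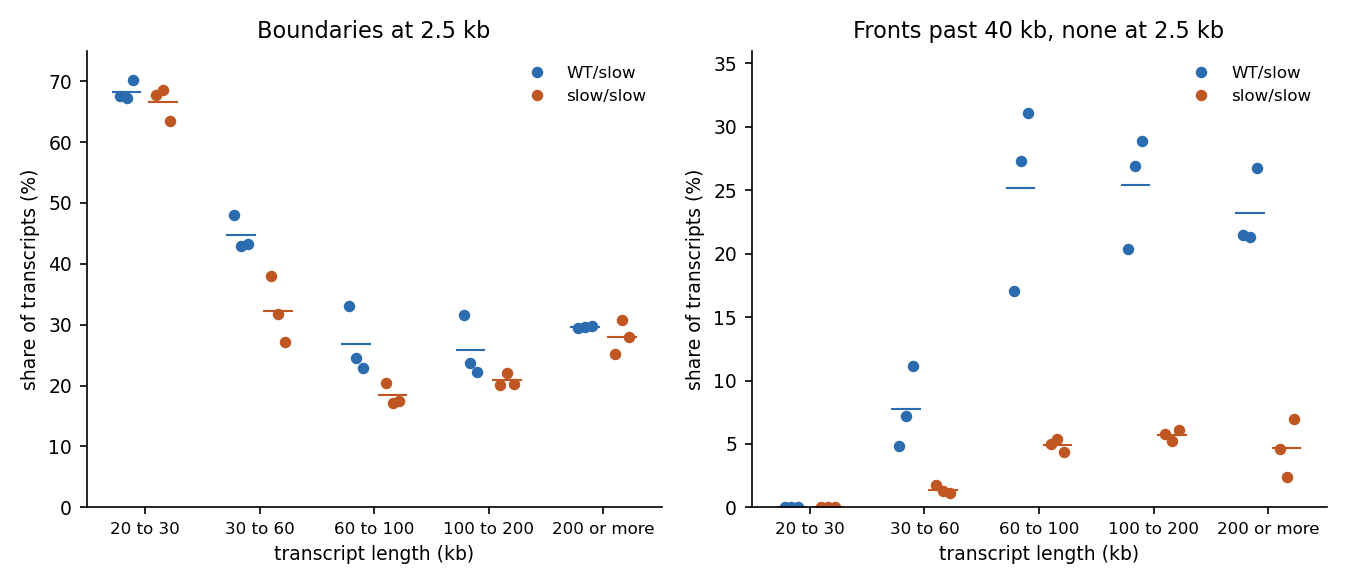
Left, share of all 25811 members with a boundary of 2.5 kb, and right, share of the 6699 members without such a boundary whose front lay past 40 kb (y axes, %), by transcript length (x axes, kb). Points are samples and lines are means of 3; in the left panel the groups are farthest apart from 30 to 60 kb, and in the right panel every slow/slow point from 30 kb upwards lies below every WT/slow point.

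The share at 2.5 kb also varied with time and length. In members of 30 to 60 kb it was 22.7% ± 3.53, 44.7% ± 2.8 and 71.1% ± 6.75 in WT/slow cells at 5, 15 and 30 min of release. In slow/slow cells it was 19.5% ± 2.0, 32.3% ± 5.48 and 69.5% ± 2.71 (SD, n = 3). In members of 200 kb or more it was 34.6% ± 2.08, 29.6% ± 0.180 and 64% ± 1.72 in WT/slow cells and 35.7% ± 3.92, 28% ± 2.81 and 61.9% ± 7.48 in slow/slow cells at the same times. The share was thus higher after 30 than after 15 min also in transcripts whose ends no front had reached after 15 min. These shares are over members with a boundary in the sample.

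In 625 members (2.42%) every WT/slow boundary and no slow/slow boundary was at 2.5 kb, and in 294 members (1.14%) the reverse was found. The former included 348 transcripts of 30 to 60 kb, in which the slow/slow fronts had a median of 23.1 kb. Among the gene lists described below, Cdk12, a kinase of the RNAPII C-terminal domain, gave this pattern in 3 transcripts. The longest of them (48.5 kb) had slow/slow fronts at 34.9, 32.2 and 27.2 kb. A 58.6-kb transcript of Bmpr1a, a BMP receptor, had slow/slow fronts at 48.5, 51 and 35.2 kb. In a 46.1-kb Bmpr1a transcript the groups overlapped, at 6.3, 7.1 and 15.5 kb in WT/slow and 2.8, 5.1 and 13.7 kb in slow/slow cells. The longest transcript of this pattern in Smad5, a transducer of BMP signals, had slow/slow fronts at 13.2, 11.4 and 33.2 kb. A retained-intron transcript of Kdm6a, a histone H3K27 demethylase gene, had fronts at 35.2, 37.8 and 35.9 kb. The reverse was seen in Fgfr1, an FGF receptor gene, where the longer of 2 such transcripts (38.9 kb) had WT/slow fronts at 28.4, 16.8 and 13.8 kb. These genes were picked from the lists after their values had been seen.

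Set beside WT/WT cells, WT/slow cells overlapped with them in the share of far fronts, and slow/slow cells lay below both. With 3 samples a group, such overlap does not show that the 1st slow allele changed nothing. In 3414 transcripts with no boundary at 2.5 kb in any of the 9 samples, the share past 40 kb was 21%, 27.3% and 19.0% in WT/WT cells. It was 16.3%, 22.2% and 20.7% in WT/slow cells and 3.87%, 3.08% and 4.28% in slow/slow cells. The step from WT/WT to WT/slow was -2.7 percentage points with overlapping groups (exact permutation test, two-sided p = 0.5), and that from WT/slow to slow/slow was -16 percentage points without overlap (p = 0.1 by the same exact test). The 90th percentile fell by 1.6 and 10.7 kb over these steps, and whether the steps differ from each other was not tested for these measures. The interquartile range narrowed at both, from 29.2 ± 3.69 kb to 23.2 ± 0.296 kb and 16 ± 1.66 kb (SD, n = 3), with no overlap at either step. Both steps use the WT/slow samples. Transcript by transcript, limma called the steps different in 36 of 3412 (1.06%, adjusted p under 0.05).

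**Figure D3:**
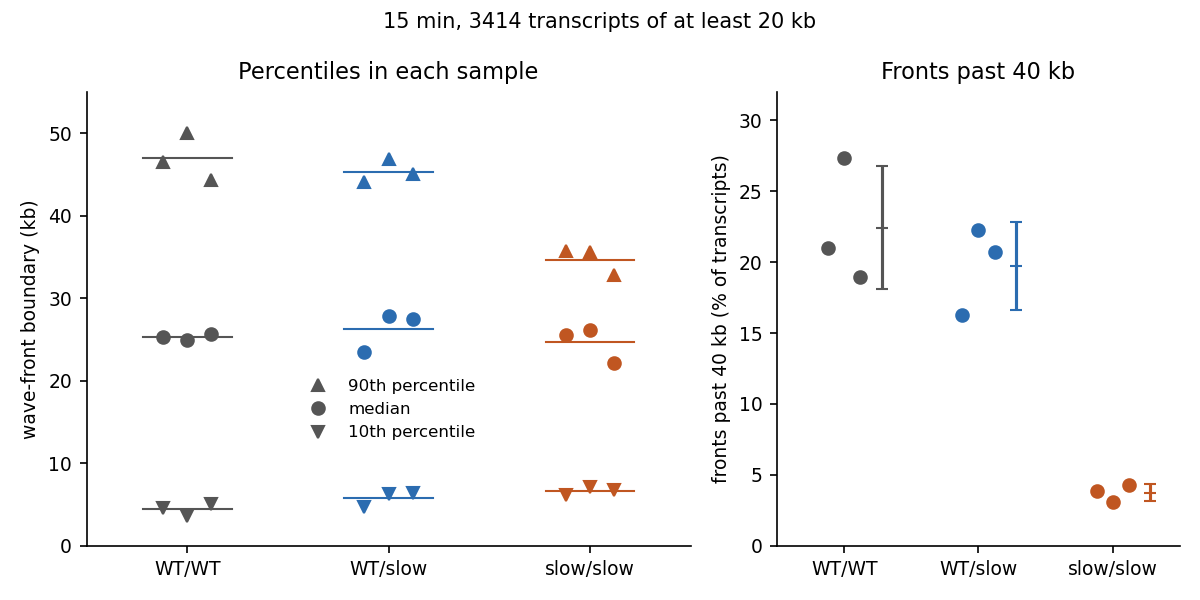
Left, 10th percentile, median and 90th percentile of the wave-front (kb) over 3414 transcripts in each of 3 WT/WT, 3 WT/slow and 3 slow/slow samples at 15 min, with lines at the group means. Right, the share of these fronts past 40 kb (%), with the mean and SD beside the points: WT/WT and WT/slow points overlap between 16.3% and 27.3%, and the slow/slow points lie between 3.08% and 4.28%.

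After 5 min the genotypes overlapped at the far end but not in the spread of the fronts. In 4079 transcripts with no boundary at 2.5 kb at 5 or 15 min, the 90th percentile after 5 min was 19.9, 22.1 and 21.7 kb in WT/slow cells. It was 18.9, 14.5 and 24.9 kb in slow/slow cells, around the WT/slow values. After 15 min it was 44.9, 48.7 and 49 kb in WT/slow cells and 37.4, 37.1 and 34.4 kb in slow/slow cells. The median after 5 min was 12.6 ± 2.42 kb in WT/slow and 10.5 ± 1.26 kb in slow/slow cells, and after 15 min 28.6 ± 3.92 and 28.7 ± 2.31 kb (SD, n = 3). The interquartile range was already narrower in slow/slow cells after 5 min, at 4.83 against 7.83 kb without overlap (exact permutation test, two-sided p = 0.1), and was 11.1 against 23.8 kb after 15 min. Among 13206 transcripts of at least 20 kb with 6 boundaries other than 2.5 kb after 5 min, limma called 5 lower and 0 higher in slow/slow cells (0.0379% at an adjusted p under 0.05), and at an unadjusted p under 0.05 there were 1515 lower and 106 higher.

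Single transcripts were tested with limma over all transcripts with 6 boundaries other than 2.5 kb (7073, of any length). In slow/slow cells 45 (0.636%) had a lower and 49 (0.693%) a higher front at an adjusted p under 0.05 (limma, Benjamini-Hochberg adjustment), from 32 and 31 genes, together 1.33%. All 94 were among the 6695 members tested (1.4%). At an unadjusted p under 0.05 there were 696 lower and 369 higher. These calls were fragile: a replicate block left 0 (limma, smallest adjusted p = 0.218), transcripts of at least 60 kb alone gave 0, and a variance trend 1. At an unadjusted p under 0.05 limma with the block had 710 lower and 345 higher, and at 60 kb or more 520 lower and 165 higher. Leaving out any 1 of the 6 samples gave 0 calls, except for WT/slow replicate 3, without which there were 147. Without a fit, all 3 slow/slow fronts lay below all 3 WT/slow fronts in 980 of 6699 transcripts (14.6%) and above them in 542 (8.09%). At 60 kb or more these were 759 (16.7%) and 253 (5.55%) of 4555.

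Since fronts are bounded at both ends, a large fall needs a far WT/slow front and a large rise a near one, and the positions of the called transcripts are given as a description of that choice. In the 45 called lower the WT/slow mean front had a median of 42.5 kb and lay past 40 kb in 29, while the slow/slow mean had a median of 17.3 kb. In the 49 called higher the WT/slow mean had a median of 5.33 kb, with all 3 WT/slow fronts within 10 kb of the start in 34. The slow/slow mean in these 49 had a median of 31.4 kb. Transcripts under 60 kb made up 28 of the 49 called higher and 4 of the 45 called lower. Of all 6699 transcripts, 2144 were under 60 kb. The WT/slow mean lay past 40 kb in 694 of the 6699, and all 3 WT/slow fronts lay within 10 kb of the start in 479.

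**Figure D4:**
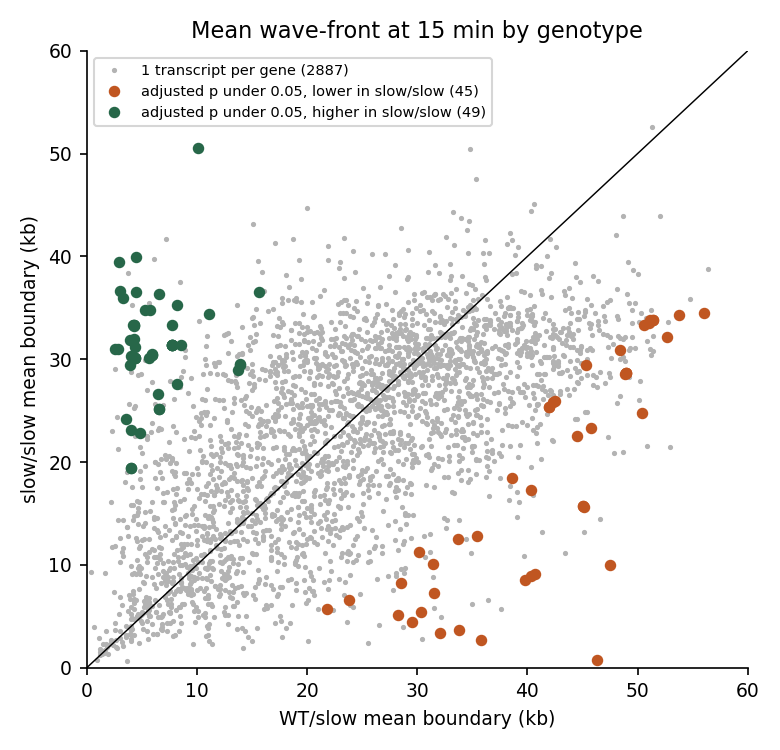
Mean wave-front of 3 slow/slow samples (y axis, kb) against that of 3 WT/slow samples (x axis, kb) at 15 min, with the line of equality. Grey points are the longest transcript of each of 2887 genes, and coloured points are the 45 transcripts called lower and the 49 called higher in slow/slow cells. Few grey points lie above 40 kb on the y axis while many do on the x axis, and most of the green points lie within 10 kb of the start in WT/slow cells.

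The largest fall was in Tpst1, which encodes an enzyme that sulfates tyrosine residues. Its transcript at chr5:130073326-130135729 had WT/slow fronts at 41.1, 56.9 and 40.9 kb, in intron 3 by their mean. All slow/slow fronts were at 0.80 kb, in intron 1, both after 5 and after 15 min. The fall was -45.5 kb with an SE of 4.97 (limma adjusted p = 0.0348, and 0.218 with the replicate block). The other Tpst1 transcript differed by -0.40 kb. Nfatc2, a transcription factor activated by calcium signals, had WT/slow fronts at 53.3, 46.8 and 42.3 kb. Its slow/slow fronts were at 8.0, 7.2 and 14.9 kb, and all 4 of its transcripts were lower in slow/slow cells.

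Cdh4, a cadherin gene that spans 457 kb at chr2:179442431-179899373, had WT/slow fronts at 45.4, 33 and 43.7 kb in intron 2. Its slow/slow fronts were at 8.6, 9.4 and 9.4 kb in the same intron. Fat1, a large atypical cadherin, had fronts at 43.5, 41.6 and 50.0 kb in WT/slow and at 17.9, 17.4 and 11.9 kb in slow/slow cells, though 1 of its 4 transcripts was higher. Fbn1, which encodes the matrix protein fibrillin, moved from 30.4, 26.4 and 31.8 kb to 4.5, 3.6 and 5.4 kb. The groups were far apart in each of these genes. In all 10 genes with the largest falls the WT/WT mean was also below the WT/slow mean. It was 10.8 kb in Tpst1, 34.4 kb in Nfatc2, 5.77 kb in Cdh4, 38 kb in Fat1 and 15 kb in Fbn1. The WT/slow means were 46.3, 47.5, 40.7, 45 and 29.5 kb. Choosing the largest falls favours high WT/slow fronts and so favours this order, which was not tested. Boundaries at 2.5 kb were kept in the WT/WT values, and Fbn1 had WT/WT fronts at 40, 2.5 and 2.5 kb.

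The other falls of this set were in Pid1, Runx1t1, Msra, Saxo1 and Ulk2. Ulk2, a kinase that starts autophagy, had the farthest WT/slow fronts of these, at 48.4, 51.7 and 51.1 kb in intron 15, and slow/slow fronts at 26.3, 26.2 and 21.8 kb in intron 8. Msra, which repairs oxidised methionine, had tight groups at 32.9, 34.3 and 34.3 kb and at 3.8, 2.6 and 4.6 kb. Of its 3 transcripts 2 were lower, and the other was higher in slow/slow cells by 12.4 kb. Runx1t1, a transcriptional co-repressor, had fronts at 33.1, 43.7 and 42.5 kb against 10.3, 10.6 and 4.6 kb. The fall of all 10 ranged from -45.5 to -25 kb, and in 8 of the 10 genes every transcript examined was lower in slow/slow cells.

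The 10 largest rises had WT/slow fronts close to the promoter, a position that choosing the largest rises favours, since no boundary exceeded 59.2 kb. Dmd, the dystrophin gene, was at 2.9 kb in each WT/slow sample in a retained-intron transcript of 96.1 kb, and at 32, 42.2 and 44.3 kb in slow/slow samples. B3galnt2, a glycosyltransferase gene, was at 4.5 kb in each WT/slow sample and at 38.9, 38.4 and 42.4 kb in slow/slow samples. Cul3, the scaffold of a ubiquitin ligase, was at 2.7, 3.0 and 4.2 kb and at 34, 36.2 and 37.8 kb in a transcript annotated for nonsense-mediated decay. In all 3 the WT/slow front after 15 min was nearer to the start than after 5 min, where it lay between 12.4 and 41.3 kb.

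Tlk2, a kinase of chromatin assembly, had WT/slow fronts at 9.2, 6.0 and 4.5 kb and slow/slow fronts at 35.7, 39.9 and 33.4 kb at chr11:105178807-105283959, in introns 3 and 6. Erc2, a scaffold protein of the synaptic active zone whose gene spans 856 kb, had them at 3.0, 5.0 and 5.0 kb and at 36.8, 35.2 and 27.9 kb. All 4 Erc2 transcripts were called higher. In WT/WT cells the mean front was near the start, like that of WT/slow cells, in some of the 10. It was at 3.53 kb in Dmd, 2.93 kb in B3galnt2, 3 kb in Cul3, 5.57 kb in Igsf11 and 7.63 kb in Fchsd2. The WT/WT fronts of Erc2 were far from the start, at 31.6, 35.5 and 30.5 kb, and those of Fam184a were at 39.2, 13.8 and 40.5 kb. They scattered widely in Tlk2 (47.5, 2.5 and 47.1 kb), Atp11b (11.6, 2.5 and 49.8 kb) and Pla2g4e (57, 2.8 and 2.5 kb). Boundaries at 2.5 kb were kept in these WT/WT values. The farthest slow/slow fronts were in Fchsd2, a gene of endocytosis, at 51.5, 52.6 and 47.5 kb against 6.0, 18.5 and 5.7 kb, but only 2 of its 5 transcripts had a higher mean. Fam184a, Pla2g4e, Igsf11 and Atp11b completed the 10, whose differences ranged from 29 to 40.5 kb. A higher mean was found in 2 of 3 transcripts of Tlk2 and in 2 of 4 of Atp11b. Of all genes with a call, Aatf alone had transcripts called in both directions.

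**Figure D5:**
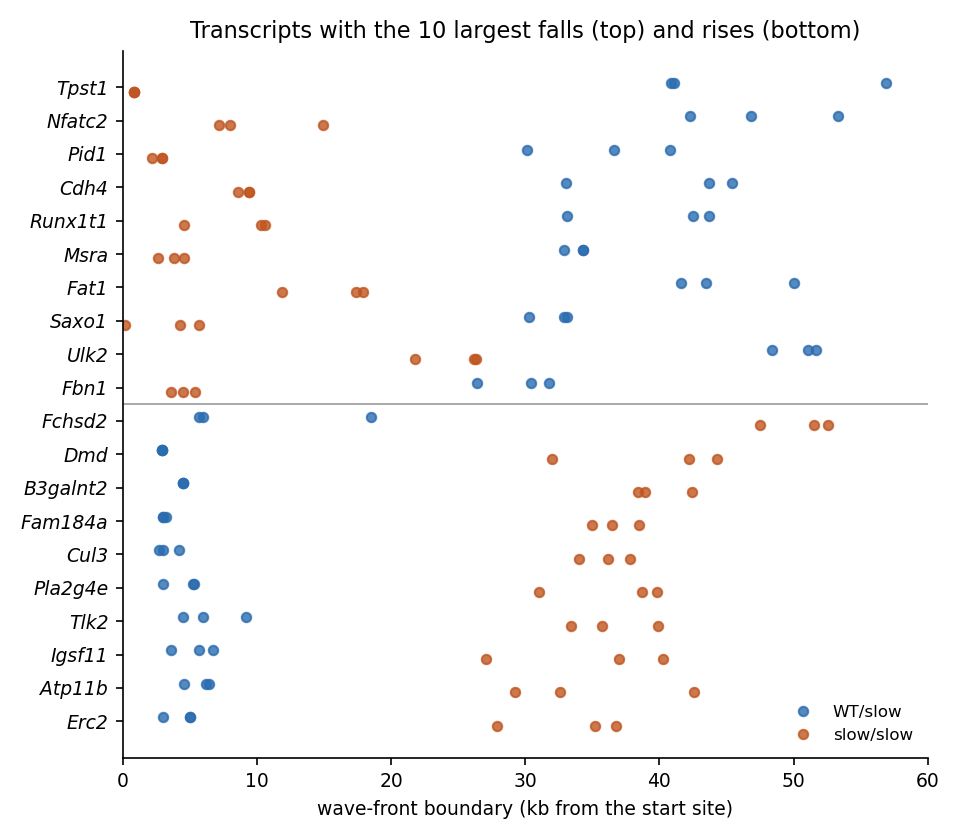
Wave-front boundary (x axis, kb from the start site) in each of 3 WT/slow and 3 slow/slow samples at 15 min for the transcripts with the 10 largest falls (above the line, Tpst1 to Fbn1) and the 10 largest rises (below it, Fchsd2 to Erc2) among those past the limma threshold. The groups do not overlap in any of the 20; in the falls the WT/slow points lie between 26.4 and 56.9 kb, and in the rises between 2.7 and 18.5 kb.

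Of the genes the study followed, Itpr1, a calcium channel gene of the endoplasmic reticulum, had WT/slow fronts at 48.5, 37.2 and 35.5 kb and slow/slow fronts at 29.8, 32.4 and 26.2 kb in intron 4 of its 338-kb transcript. The groups did not overlap in this transcript, and the difference of -10.9 kb (SE 4.33) missed the threshold (limma adjusted p = 0.325). In an Itpr1 transcript of 337.9 kb the groups overlapped. The WT/slow fronts were there at 48.4, 36.9 and 35.3 kb and the slow/slow fronts at 37.1, 32.2 and 26 kb. Utrn, a relative of dystrophin, scattered from 3.3 to 29.2 kb in WT/slow and from 17.9 to 25.9 kb in slow/slow cells. Ern1, a sensor of unfolded proteins, differed by -1.03 kb (SE 2.72) and Notch1, the signalling receptor, by -1.43 kb (SE 2.52), both with overlapping groups. Polr2a itself was no member, since none of its transcripts had a boundary in all 6 samples at this length.

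Gene lists were described with 1 transcript per gene. Over all 2887 genes 54.0% had a lower mean front in slow/slow cells, the median difference was -0.70 kb, and the groups did not overlap in 384 that were lower (13.3%) and 270 that were higher (9.35%). Of the 2887 transcripts used, 20 were called lower and 20 higher in the fit over all transcripts. The lists held few genes and lay around these values, and none was tested as a set.

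Of 12 genes of pluripotency and LIF signalling, 6 had a lower mean front, with a median difference of -1.22 kb. In 3 all slow/slow fronts were below all WT/slow fronts and in 1 above, and none was called. Jak2, the kinase that transmits the LIF signal, had WT/slow fronts at 45.6, 46.8 and 28.9 kb and slow/slow fronts at 28.1, 22.8 and 22.1 kb. Smad1, a transducer of BMP signals, had them at 46, 54 and 42.6 kb and at 33.8, 34.8 and 28 kb. Il6st, the co-receptor for LIF, had the opposite order in its 31.9-kb transcript, with 14.2, 16.7 and 3.0 kb in WT/slow and 20.4, 25.5 and 18.8 kb in slow/slow cells.

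Of 9 genes of elongation factors and their kinases, 5 had a lower mean, with a median difference of -1.17 kb, and 1 was called. This was Ell2, a subunit of the super elongation complex, with WT/slow fronts at 48.5, 49.6 and 47.1 kb and slow/slow fronts at 32.9, 31.8 and 28.1 kb, a fall of 17.5 kb (SE 2.51, limma adjusted p = 0.0498). It was the only gene of the list in which the groups did not overlap.

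Chromatin regulators, with 34 genes, had a lower mean in 15 and a median difference of 1.63 kb. The groups did not overlap in 4 that were lower and 2 that were higher. Setd2, the methyltransferase that marks H3K36 behind elongating RNAPII, was called, with WT/slow fronts at 34.8, 41.6 and 39.5 kb and slow/slow fronts at 18, 20.2 and 17.3 kb in a transcript annotated for nonsense-mediated decay. Ino80, the ATPase of a nucleosome remodeller, had 27.3, 54.6 and 36 kb against 14.2, 25.3 and 25.5 kb. The histone demethylase gene Kdm2b had the opposite order, with 17.7, 2.3 and 1.5 kb in WT/slow and 44.6, 51.9 and 28.5 kb in slow/slow cells. Kdm4a, of the same kind, had 11.5, 7.9 and 13 kb against 33.7, 31 and 23.7 kb, and neither passed the threshold.

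Of 15 genes of splicing and RNA processing, 8 had a lower mean, with a median difference of -0.83 kb, and the groups did not overlap in 1 that was lower and 3 that were higher. Rbm26, an RNA-binding protein, was called higher, from 2.9, 3.0 and 2.6 kb to 26.5, 34.5 and 31.9 kb. Mbnl1, a regulator of alternative splicing, had 28.2, 41.1 and 36.8 kb in WT/slow cells and 46.2, 51.6 and 44.8 kb in slow/slow cells. It is one of the few genes named here whose slow/slow fronts all lay past 40 kb. Nova1, a neuronal splicing regulator, had 38.6, 54.8 and 38.9 kb against 35.3, 31.5 and 26.7 kb.

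DNA repair and replication had a lower mean in 13 of 21 genes, with a median difference of -0.70 kb, and no gene with all slow/slow fronts above. Ercc6, which acts when RNAPII stalls at DNA damage, had WT/slow fronts at 56.5, 50.7 and 46.5 kb and slow/slow fronts at 31.8, 29.1 and 30.4 kb, a difference of -20.8 kb (SE 3.3, limma adjusted p = 0.0581). Msh3, of mismatch repair, had 49.5, 50.1 and 43.6 kb against 28.5, 27.6 and 38.3 kb. These were the only 2 genes of the list without overlap.

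Genes of synapses and axon guidance are long, and 23 of 33 (69.7%) had a lower mean in slow/slow cells, with a median difference of -2.17 kb. The groups did not overlap in 4 that were lower (12.1%) and 2 that were higher (6.06%), and none was called. Slit2, a guidance cue, had fronts at 54.3, 50.7 and 42.7 kb in WT/slow cells, and at 35.8, 26.9 and 22.1 kb in slow/slow cells. Grik2, a glutamate receptor subunit, had 20.8, 36.7 and 28.9 kb against 12.2, 4.2 and 11.2 kb. Ephb1, an ephrin receptor, had tight groups in the other order, at 7.9, 8.4 and 8.4 kb and at 18.1, 17.3 and 17.1 kb, and Dlgap1, a scaffold of the postsynaptic density, had 5.0, 6.1 and 5.3 kb against 15.7, 9.0 and 7.5 kb. Of the 8 genes of the Notch pathway 3 had a lower mean, with a median difference of 4.62 kb, and Fbxw7, which marks Notch for degradation, had 3.4, 10.4 and 4.5 kb against 41.2, 52.4 and 25.8 kb.

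Transcript length, by which members were chosen, and features that the choice did not use were set beside the difference as descriptions across transcripts. Over 6261 transcripts with the same ends in GENCODE M21, Spearman's rho between the difference and transcript length was -0.16. It was -0.04 for the number of exons, -0.02 for the length of the first intron and 0.02 for the GC content of the first 20 kb. Among those of at least 60 kb rho with length was 0.00, and of 4 equal bins by length the shortest and the longest had median differences of -2.53 and -3.07 kb. By type of transcript, the median difference at this length was -2.67 kb in 3451 protein-coding transcripts and -5.63 kb in 78 lincRNAs. The mean fronts lay in introns in 97.4% of genes in WT/slow and 97.5% in slow/slow cells, and in the first intron in 39.4% and 39.6%.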

How the data were processed

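Wave-front boundaries of 27 samples were read. The comparison used 6 of them, with WT/WT cells after 15 min and both mutant genotypes after 5 min beside it, and the 30 min samples only for the share at 2.5 kb and for 1 alternative fit. Groups and replicate numbers come from the sample titles. The deposited values are distances in bases from the start site, in steps of 100, with 1 value or none per Ensembl transcript. The authors mapped the reads with bowtie2 (2.2.9 in the submitters' processing notes; build mm10), kept uniquely mapped reads outside rRNA, and called the end of the wave against the average of the 0 min samples with published software, whose version and annotation are not given in the sources used here. The DRB block is 4 h in the labels and the methods, while the study's text also gives a shorter time. The depth behind a value is unknown, and only the spread of 3 samples measures precision.

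Members were transcripts of at least 20 kb with 6 boundaries, and those with any boundary equal to 2500 bases were left out of front positions. Sample summaries were compared with exact two-sided permutation tests over samples. Single transcripts were fitted with limma 3.58.1 (lmFit, eBayes, R 4.3.3) in kb, with Benjamini-Hochberg adjustment over all transcripts fitted and a threshold of 0.05. Of the 6699 members, 4 were not fitted because their 6 boundaries were equal. The script was tested on simulated data. Same-numbered samples of the genotypes deviated together from their group means (r = 0.158, 0.119 and 0.103 over 6699 transcripts), so the numbers were taken to pair the samples. Calls and adjusted p of single transcripts, named genes included, come from the fit without a replicate block unless stated. With the block none of the 94 calls between slow/slow and WT/slow cells remained. The named transcripts were, among those with no boundary at 2.5 kb, the longest qualifying transcript of a gene: the 10 largest falls and 10 largest rises past the threshold, the genes the study names, and for each of 7 gene lists the 2 largest falls and rises without overlap of the groups. Members, lists and rules were chosen with earlier results of these data known. Coordinates, exons and symbols are from GENCODE M21 (GRCm38, the build of mm10), with 6680 of the 6699 matched by identifier and 6261 with the same ends. The Polr2a sequence is from the RefSeq genome GRCm38.p6. Python 3.11.15, pandas 2.3.3 and NumPy 2.4.6 were used. RNA-seq libraries and untreated cells of the series were not analysed here.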

Additional observations from a re-analysis of the deposited data

Results flagged for a closer look

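In 10 of 4079 transcripts (0.245%), from 9 genes, the difference between slow/slow and WT/slow cells changed between 5 and 15 min (limma interaction, adjusted p under 0.05). The change was always towards a farther slow/slow front relative to WT/slow cells at the later time. In all of them except March8 the WT/slow mean front was nearer to the start after 15 than after 5 min. The WT/slow means after 5 and 15 min were 14.9 and 4.07 kb in Tex15, and 39.3 and 40.8 kb in March8. The clearest change was in Mapkapk2, a kinase of the stress response. Its WT/slow fronts were at 20.8, 16.2 and 15.1 kb after 5 min and at 4.3 kb in every sample after 15 min. Its slow/slow fronts were at 9.8, 6.9 and 6.7 kb and then at 32.8, 31 and 32.2 kb (adjusted p = 0.00412). B3galnt2, Cul3 and Tlk2, named above among the rises, were in this set. With the replicate block 2 transcripts were called. Mapkapk2 was picked here after its values had been seen.

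In 36 of 3412 transcripts (1.06%), from 23 genes, the step from WT/slow to slow/slow cells differed from the step from WT/WT to WT/slow cells (limma, adjusted p under 0.05), and 21 were called with the replicate block. In all 36 the WT/slow cells stood outside both other genotypes, with the farthest mean front in 19 and the nearest in 17. The difference between the steps is largest where WT/slow cells lie outside both, so calling by it favours this pattern. The positions are given as a description of that choice. Fgfr2, an FGF receptor gene, had WT/WT fronts at 39.5, 42.5 and 41.3 kb, WT/slow fronts at 6.4, 5.6 and 7.8 kb and slow/slow fronts at 24.7, 27.9 and 22.9 kb. Ets1, a transcription factor gene, had the same order in 3 transcripts. Bend7 had the reverse order, at 6.2, 5.3 and 5.6 kb, then 39, 41.9 and 42.8 kb, then 31, 28.6 and 29.3 kb. These 3 genes were picked after their values had been seen. Groups of 3 samples were not searched for single outlying samples.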

How the results depend on the processing

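The lower share of boundaries at 2.5 kb, the lower 90th percentile and the lower share past 40 kb in slow/slow cells kept their direction over all lengths under every alternative tried, while the 90th percentile was higher in slow/slow cells in the shortest class and, with boundaries at 2.5 kb kept, from 30 to 60 kb; leaving out each sample gave -8.03 to -5.54 percentage points, -11.6 to -9.43 kb and -17.7 to -12.5 percentage points. The narrower interquartile range (-9.13 to -6.64 kb) turned to 6.03 kb with boundaries at 2.5 kb kept. The difference of medians turned to -1.17 kb with transcripts of at least 60 kb, -1.43 kb with means, -4.87 kb with every boundary above 10 kb (a choice made on the fronts themselves), and ranged from -0.17 (without WT/slow replicate 1) to 2.42 kb with each sample left out. By length class, boundaries at 2.5 kb kept gave 0 kb (20 to 30 kb), 7.63 kb (60 to 100 kb), 6.67 kb (100 to 200 kb) and 3.17 kb (200 kb or more); each sample left out gave 0.03 to 1.18, 3.11 to 4.98, -3.13 to 0.88, -2.87 to 0.067 and -3.51 to -0.88 kb in order of length. The sign-flip tests with the replicate block could not fall below 0.25, so they say nothing on stability.

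The 94 calls became 753 (189 lower, 564 higher) with boundaries at 2.5 kb kept, 120 on the log2 scale, 46 with members only in the fit, 23 with 1 transcript per gene, 1 with a variance trend, and 0 with the replicate block, with transcripts of at least 60 kb (1 per gene too), with every boundary above 10 kb (1 per gene too) and with all 27 samples in 1 fit, where 56 were tested. Each sample left out gave 0 to 147 (147 without WT/slow replicate 3, 0 without any other). The 10 time interactions became 521 with 2.5 kb kept, 0 from 60 kb, 2 with the replicate block and 1 to 126 with a sample left out (126 without WT/slow 15 min replicate 3). The 36 dose calls became 543, 19, 21 and 21 to 68 in the same order (68 without WT/WT replicate 3, 21 without slow/slow replicate 2). Named genes below the threshold changed sign in some fits with a sample left out: Utrn ranged from -5.08 kb without WT/slow replicate 1 (-0.13 kb without slow/slow replicate 1) to 7.87 kb without WT/slow replicate 3, Notch1 from -2.6 kb to 0.15 kb without slow/slow replicate 3, and Ern1 from -2.5 kb to 0.50 kb without WT/slow replicate 3 (0.02 kb without slow/slow replicate 3). The causes were not tested. With unknown depth, 3 samples a group and limited agreement between replicates, only large shifts in single transcripts were called. The smallest differences called were 15.8 kb among the lower and 15.2 kb among the higher. Ephb1, with tight groups, missed the threshold at 9.27 kb (limma adjusted p = 0.119).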

Other observations

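By chromosome, the median difference between slow/slow and WT/slow cells in transcripts of at least 60 kb was below 0 on every chromosome listed except chromosome 8, where it was 0.47 kb over 203 transcripts. It was lowest on chromosome 15, at -8.43 kb over 111 transcripts, and on chromosome 19, at -5.97 kb over 105, against -2.67 kb over all 4555. Transcripts of one gene share fronts, so that the number of independent values per chromosome is smaller than these counts, and the differences between chromosomes were not tested.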
